A study of Mus musculus with 6 samples.

Results

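The genes described here are 9 components of the Hedgehog pathway in primary mouse pancreatic stellate cells (PSCs): the transcription factors Gli1, Gli2 and Gli3, the receptor Ptch1, the signal transducer Smo, the ligand-binding decoy Hhip, and the coreceptors Boc, Cdon and Gas1. They were chosen by name, not by a rule on their values, from the 55421 genes of the deposited table. Earlier results of these data were known when the choice was made. Of the 9, 7 had enough reads for testing (all but Gli1 and Hhip), among 16207 genes tested in all. RNA was sequenced from PSCs that shared a transwell with mT3 tumor organoids, in 3 samples kept at 21% O2 (normoxia) and 3 kept at 1% O2 (hypoxia), each for 48 h. The labels give the strain as C57BL/6, and the study's methods describe low-passage PSC lines from wild-type young adult mice of both sexes, seeded in Matrigel in the upper insert. The mT3 line comes from a primary tumor of a genetically engineered mouse model of pancreatic ductal adenocarcinoma (PDAC), and its organoids were present below the insert in both groups, so no sample holds PSCs alone. The comparison asks how the RNA levels of the pathway differ between PSCs at the 2 oxygen levels. The labels do not say whether the 3 samples of a group came from separate PSC lines, and p-values measure only the spread between these samples.

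Hedgehog ligands bind Ptch1 at the cell surface together with the coreceptors Boc, Cdon and Gas1, which relieves the block that Ptch1 places on Smo. Active Smo gathers in the primary cilium and changes the processing of Gli2 and Gli3, the main activator and the main repressor among the Gli factors. Transcription of Gli1, Ptch1 and Hhip is itself raised by Gli activity, so these genes are widely used as readouts of the pathway. In pancreatic tumors the ligand is made by the cancer cells and acts mostly on neighbouring fibroblasts, where the pathway has been linked to a myofibroblastic state.

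The promoters of Ptch1 and Gli2 are printed because both genes had higher RNA levels in all 3 hypoxic samples, and because Ptch1 is a Gli target. Each is the RefSeq window from 250 bases before to 50 bases after a start of transcription on GRCm38.p6, read along the strand of the gene, and the capitals mark a GC box (GGGCGG on the printed or the opposite strand), the sequence bound by Sp-family factors. The Ptch1 window is chr13:63565686-63565985 on the minus strand, at the start of an annotated transcript inside the gene. The Gli2 window is chr1:119053570-119053869 on the minus strand, at the outer end of the gene.
Ptch1: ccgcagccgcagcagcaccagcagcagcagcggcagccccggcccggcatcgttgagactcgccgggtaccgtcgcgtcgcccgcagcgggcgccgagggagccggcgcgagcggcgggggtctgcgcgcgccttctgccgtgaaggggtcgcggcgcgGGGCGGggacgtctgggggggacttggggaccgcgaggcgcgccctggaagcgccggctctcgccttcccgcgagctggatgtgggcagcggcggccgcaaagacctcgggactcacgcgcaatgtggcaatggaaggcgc
Gli2: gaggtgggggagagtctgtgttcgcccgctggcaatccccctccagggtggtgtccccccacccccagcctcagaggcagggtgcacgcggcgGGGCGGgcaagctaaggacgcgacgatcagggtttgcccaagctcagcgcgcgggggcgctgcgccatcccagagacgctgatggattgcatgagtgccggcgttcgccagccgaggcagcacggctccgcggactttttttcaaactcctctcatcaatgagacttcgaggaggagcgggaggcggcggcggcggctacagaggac

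The Ptch1 window is 76.3% G and C with 47 CG pairs, and the Gli2 window is 67.3% G and C with 28 CG pairs. Over all 32851 RefSeq promoters of the same length, the medians were 52.7% and 7 pairs. Of the 9 genes, 7 had a promoter in the RefSeq table (not Gli1 and Boc). The letters GACCACCCA, the core of the Gli binding motif, were searched on both strands and were found in none of the 7, exactly or with 1 mismatch, as against 0.253% and 6.74% of all promoters. The letters ACGTG, the core that hypoxia-inducible factors bind, were also in none of the 7 and in 19.6% of all promoters. The GC box was in 5 of the 7 windows (Gli3 and Hhip 2 each, Ptch1, Gli2 and Gas1 1 each) and in 35.7% of all promoters. These windows cover only the start of each gene, and absence of the letters says nothing of sites elsewhere.

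Levels are given as CPM (the count scaled to a common library size, after TMM normalization), and as CPM per kb of merged exon length where genes are compared with each other. Library totals ran from 24749601 to 31925054 counts. A gene is called higher or lower in hypoxia if its linear fold change is beyond 1.5 and its p, from the edgeR quasi-likelihood test adjusted by Benjamini-Hochberg over all 16207 genes, is below 0.05. The treatment was visible in all 10 listed hypoxia-response genes, which rose with a median log2 fold change of 2.04, among them Car9 (5.13) and Ndrg1 (3.79).

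Of the 7 Hedgehog genes tested, 2 were called, or 28.6%, beside 34.2% of all genes. Both, Boc and Ptch1, rose in hypoxia, a direction called in 18.9% of all genes. None was called lower, as against 15.3% of all genes. Without the limit on the fold, 5 of the 7 passed the adjusted p (71.4%, beside 62.7% of all genes): Gli2, Ptch1 and Boc were higher, and Smo and Gas1 lower. The same 5 genes had no overlap between the 3 hypoxic and the 3 normoxic CPM values (71.4%, beside 68.9% of all genes). The median log2 fold change of the 7 was -0.07, and that of all tested genes was -0.00398. All 3 shares lay near those of the whole transcriptome, and the 5 genes did not share a direction.

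**Figure D1:**
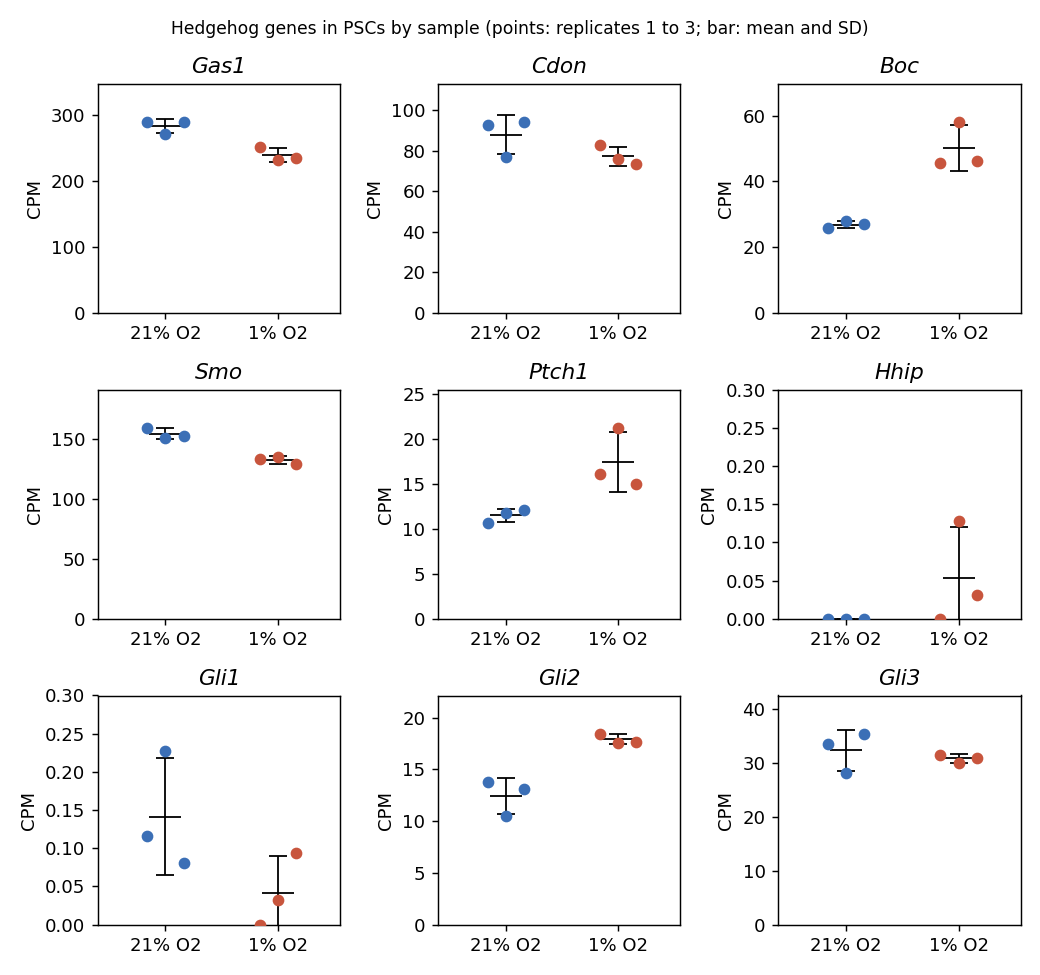
Level of each Hedgehog gene in CPM (vertical axes, linear, from 0) in the 3 normoxic (21% O2, blue) and 3 hypoxic (1% O2, red) samples, with replicates 1 to 3 from left to right and bars for the mean and SD. Boc, Ptch1 and Gli2 were higher in every hypoxic sample, Gas1 and Smo were lower in every hypoxic sample, Cdon and Gli3 overlapped, and Gli1 and Hhip lay below 0.3 CPM throughout.

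Among the coreceptors, Boc, an immunoglobulin-family surface protein that binds Hedgehog ligand, changed most. Boc (ENSMUSG00000022687, chr16:44485049-44558897, minus strand) was at 25.8, 27.9 and 26.9 CPM in normoxia and at 45.7, 58.2 and 46.4 CPM in hypoxia. The groups were far apart, with replicate 2 the highest in hypoxia. Boc rose 1.87-fold, a log2 fold change of 0.90 (SE 0.0962, adjusted p = 4.58e-05, edgeR). Cdon, the close relative of Boc in structure (ENSMUSG00000038119, chr9:35421128-35507652, plus strand), was at 92.6, 76.7 and 94.2 CPM in normoxia and at 82.5, 75.9 and 73.3 CPM in hypoxia. Normoxic replicate 2 lay within the hypoxic range, and the log2 fold change of -0.19 did not pass (SE 0.0846, adjusted p = 0.0814, edgeR). Without that library the adjusted p was 0.00355 at a log2 fold change of -0.28, still short of the fold limit. Gas1, a membrane-anchored growth-arrest protein that also binds ligand (ENSMUSG00000052957, chr13:60174405-60177365, minus strand), was at 290, 271 and 289 CPM in normoxia and at 252, 231 and 234 CPM in hypoxia. Every hypoxic sample was below every normoxic one, but the difference was small, with a log2 fold change of -0.24 (SE 0.0579, adjusted p = 0.00511, edgeR). Of the exon bases of Gas1, 589 are shared with the noncoding gene Gm48488 on the opposite strand, which had 362 to 392 counts in normoxia and 467 to 560 in hypoxia. Whether counting used the strand is not given in the sources used here.

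The make-up of the coreceptors therefore moved toward Boc. Of the summed level per kb of the 3 coreceptors, Boc made up 5.34% ± 0.413 (SD, n = 3) in normoxia and 11.0% ± 1.69 in hypoxia. Gas1 went from 84.6% ± 0.369 to 79.2% ± 1.59, and Cdon stood at 10.0% ± 0.722 and 9.80% ± 0.256. The exact two-sided permutation test gave p = 0.1 for Boc and for Gas1 and p = 0.7 for Cdon, where 0.1 is the smallest that 3 samples against 3 allow. Gas1 remained the most abundant coreceptor in both groups.

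Ptch1, the receptor and a target of its own pathway (ENSMUSG00000021466, chr13:63508328-63573598, minus strand), was at 10.7, 11.8 and 12.1 CPM in normoxia and at 16.1, 21.3 and 15.0 CPM in hypoxia. All hypoxic samples were above all normoxic ones, and replicate 2 again was the highest. Ptch1 rose 1.52-fold, a log2 fold change of 0.60 (SE 0.134, adjusted p = 0.00369, edgeR), just past the fold limit. The call was lost under 7 of 19 alternatives, in which the log2 fold change was under the limit of 0.585: without hypoxic replicate 2 (0.43), without normoxic replicate 1 (0.55), without replicate 2 of both groups (0.44), with a length correction (0.51), and with upper-quartile scaling (0.578), library totals only (0.584) or no low count filter (0.579). The adjusted p stayed between 0.000240 and 0.0145 over all 19 alternatives.

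Smo, the transmembrane transducer that Ptch1 holds in check (ENSMUSG00000001761, chr6:29735503-29761365, plus strand), was at 160, 151 and 153 CPM in normoxia and at 133, 135 and 129 CPM in hypoxia. The samples of each group lay close together and the groups did not overlap. The log2 fold change was -0.22 (SE 0.0507, adjusted p = 0.00420, edgeR), below the fold limit. Ptch1 was a small part of the summed level per kb of Ptch1 and Smo, 2.87% ± 0.248 (SD, n = 3) in normoxia and 4.95% ± 0.801 in hypoxia (exact permutation p = 0.1, the smallest possible).

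Hhip, a membrane protein that captures ligand and is a target of the pathway (ENSMUSG00000064325, chr8:79965851-80058006, minus strand), had 0 counts in all 3 normoxic samples and 0, 4 and 1 counts in hypoxic replicates 1, 2 and 3. A count of 0 allows a true level of up to 3 counts, or 0.0943 to 0.122 CPM in these libraries, and counts of 3 or fewer are treated as not told from none. Hhip had more than 3 counts in hypoxic replicate 2 only, so it was not detectable in the other 5 samples at this depth and no fold is given.

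**Figure D2:**
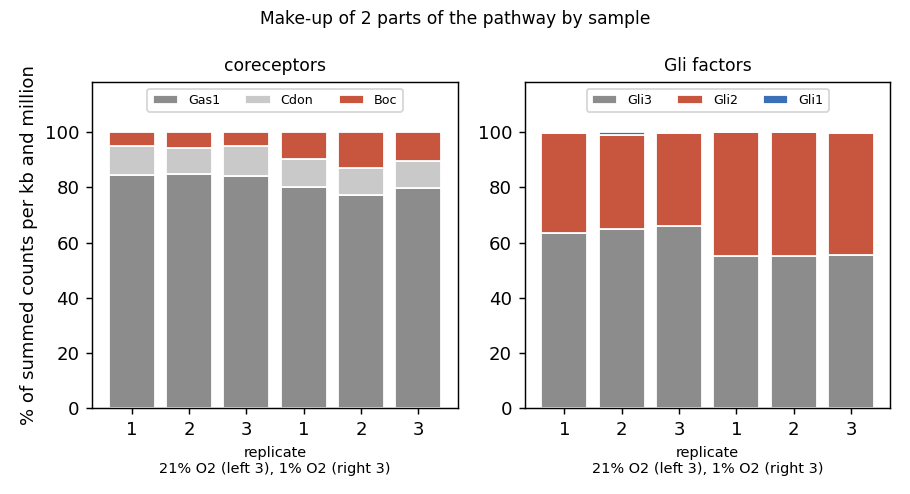
Share of each gene (vertical axis, %) in the summed CPM per kb of the coreceptors and of the Gli factors, one stacked bar per sample, with the 3 normoxic samples on the left and the 3 hypoxic ones on the right of each panel. The red shares of Boc and Gli2 were larger in each hypoxic sample than in any normoxic sample, and Gli1 is barely visible.

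Among the Gli factors, Gli2, the main activator (ENSMUSG00000048402, chr1:118834132-119053619, minus strand), was at 13.7, 10.5 and 13.1 CPM in normoxia and at 18.5, 17.6 and 17.7 CPM in hypoxia. The hypoxic samples were close together and above all normoxic samples. Gli2 was 1.44-fold higher, a log2 fold change of 0.52 (SE 0.105, adjusted p = 0.00198, edgeR), which is short of the fold limit. Without normoxic replicate 1 it reached 0.60 and would be called. Gli3, which acts mostly as a repressor when no ligand is bound (ENSMUSG00000021318, chr13:15463235-15730026, plus strand), was at 33.6, 28.2 and 35.5 CPM in normoxia and at 31.6, 30.1 and 31.0 CPM in hypoxia. The groups overlapped, and the log2 fold change of -0.07 did not pass (SE 0.0859, adjusted p = 0.502, edgeR). Without normoxic replicate 2, its lowest sample, the adjusted p was 0.0398 at a log2 fold change of -0.17. Of its exon bases, 188 are shared with Gm6556 on the opposite strand, which had 16 to 36 counts per sample.

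Gli1, the activator whose transcription is the most common readout of the pathway (ENSMUSG00000025407, chr10:127329882-127341974, minus strand), had 3, 6 and 2 counts in normoxia and 0, 1 and 3 counts in hypoxia. Only normoxic replicate 2 had more than the 3 counts that a count of 0 allows. The totals of 11 and 4 counts give a ratio of hypoxia to normoxia of 0.316 with an exact 95% interval of 0.0733 to 1.07, which covers counting error only, as reads counted without molecular tags may be copies of 1 molecule. The interval includes a ratio of 1, so a difference in Gli1 was not detectable at this depth. The interval leaves out the spread between replicates, so it sets no firm bound on a rise. Of its exon bases, 62 are shared with Arhgap9 on the opposite strand, which had 98 to 156 counts in normoxia and 36 to 103 in hypoxia.

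Within the Gli factors, Gli2 made up 34.6% ± 1.34 (SD, n = 3) of the summed level per kb in normoxia and 44.6% ± 0.381 in hypoxia, while Gli3 went from 64.8% ± 1.27 to 55.2% ± 0.225. The exact permutation p was 0.1 for each, the smallest possible. Gli3 remained the more abundant of the pair in all 6 samples.

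**Figure D3:**
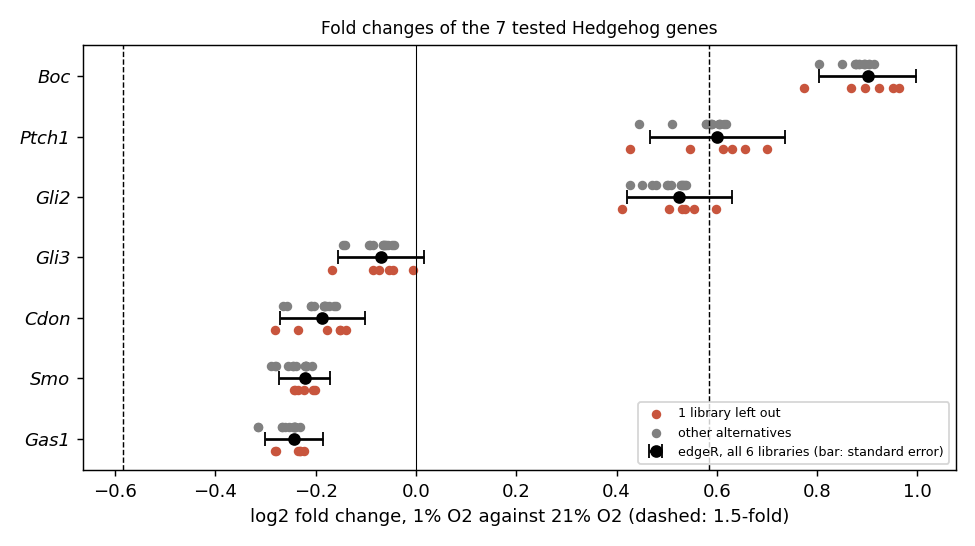
Log2 fold change in hypoxia against normoxia (horizontal axis) for the 7 tested Hedgehog genes, with the edgeR estimate and its standard error in black, the fits that leave out 1 library in red and the other alternatives in grey, and dashed lines at a 1.5-fold change. Boc lay past the line under every alternative, Ptch1 fell on both sides of it, and no gene changed sign.

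The order of the levels per kb was the same under both measures of gene length. In normoxia it was Gas1 (95.7 ± 3.49 CPM per kb, SD, n = 3), Smo (27.5 ± 0.805), Cdon (11.4 ± 1.25), Boc (6.03 ± 0.237), Gli3 (3.38 ± 0.397), Gli2 (1.81 ± 0.248), Ptch1 (0.812 ± 0.0512), Gli1 (0.0283 ± 0.0153) and Hhip (0). From Gas1 to Gli1, no 2 neighbours in that order overlapped over the 3 samples. Gli1 and Hhip were not told apart, as only normoxic replicate 2 had more than 3 counts of Gli1. In hypoxia Boc (11.3 ± 1.58) and Cdon (10.0 ± 0.618) overlapped, as did Gli1 and Hhip near 0, and the other neighbours did not. In both groups the coreceptors and Smo stood above the Gli factors, and the target genes Ptch1, Gli1 and Hhip were the lowest 3. The genes whose CPM followed Gas1 most closely over the 6 samples were Gramd3 and Tmem184b (Pearson r = 0.999 each), Twsg1 and Cbx6 (0.998 each) and Iscu (0.996), a description over samples that share the 2 oxygen levels.

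Ligand RNA was scarce in the PSCs. Shh had 0 counts in all 6 samples. Ihh had 4 counts in normoxia and 16 in hypoxia, a ratio of 3.47 (exact 95% interval 1.12 to 14.3, counting error only), and hypoxic replicates 2 and 3 held 7 and 8 of the 16. Dhh had 13 and 17 counts, a ratio of 1.14 (exact 95% interval 0.519 to 2.54). Of the 6 tested genes for making and releasing ligand, 1 rose and 1 fell (33.3% called, beside 34.2% of all genes). The number called was 1 instead of 2 with a filter of 1 CPM in 3 samples. It was 3 without normoxic replicate 2, without replicate 2 of both groups, and with no fold limit. Scube3, a secreted carrier of released ligand, rose by a log2 fold change of 1.74 (adjusted p = 0.000954, edgeR), from 0.284 to 0.539 CPM in normoxia to 1.18 to 1.38 CPM in hypoxia. Scube1, of the same family, fell by 1.73 on the log2 scale (adjusted p = 0.0103, edgeR), from 0.609 to 1.00 CPM to 0.0785 to 0.383 CPM. Disp1, which exports the ligand, was lower at -0.50 (adjusted p = 0.00726, edgeR) without reaching the fold limit. Hhat, which attaches the ligand's lipid, differed by -0.24 (adjusted p = 0.0960, edgeR), Disp2 by -0.29 (adjusted p = 0.195) and Scube2 by 0.20 (adjusted p = 0.584), and none of these passed.

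Of 13 other tested surface components, 2 rose, 1 fell and 10 were not called, so that 23.1% were called beside 34.2% of all genes. Gpc3, a glypican known to compete with Ptch1 for ligand, was at 56.7, 57.8 and 59.0 CPM in normoxia and at 153, 164 and 157 CPM in hypoxia, a rise of 1.45 on the log2 scale (adjusted p = 8.52e-08, edgeR). Gpc4, another glypican, fell by 0.73 on the log2 scale (adjusted p = 2.44e-05, edgeR). Lrp2, an endocytic receptor that takes up ligand, rose by 1.42 on the log2 scale (adjusted p = 0.00754, edgeR), from at most 1.18 CPM in normoxia to at least 1.60 CPM in hypoxia. Evc, a ciliary partner of Smo, was lower at -0.41 (adjusted p = 0.000818, edgeR), under the fold limit.

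Of the 22 cytoplasmic transducers, 2 rose and 1 fell (13.6% called, beside 34.2% of all genes), with a median log2 fold change of 0.01. The number called was 5 instead of 3 without normoxic replicate 3 and with a GC correction. Ulk3, a kinase that acts on the Gli factors, was at 11.7, 16.1 and 14.3 CPM in normoxia and at 41.1, 40.4 and 44.7 CPM in hypoxia, a rise of 1.58 on the log2 scale (adjusted p = 3.09e-06, edgeR). Stk36, another kinase of the pathway, rose by 0.67 (adjusted p = 0.000444, edgeR). Prkaca, the catalytic subunit of protein kinase A that primes Gli2 and Gli3 for processing, fell by 0.80 on the log2 scale (adjusted p = 1.55e-05, edgeR). Sufu, the inhibitor that holds Gli factors in the cytoplasm, was at 48.9, 47.6 and 44.6 CPM in normoxia and at 42.7, 42.9 and 40.8 CPM in hypoxia, a log2 fold change of -0.16 (adjusted p = 0.0366, edgeR) well inside the fold limit. Kif7, a ciliary kinesin that regulates Gli processing, was lower at -0.55 (adjusted p = 0.00101, edgeR), also short of the limit.

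Of 33 genes for the primary cilium and its transport, in which Hedgehog signaling takes place, 1 rose and 2 fell (9.09% called, beside 34.2% of all genes), with a median log2 fold change of -0.05. Arl13b, a ciliary membrane GTPase needed for the Hedgehog response, rose by 0.84 on the log2 scale (adjusted p = 3.53e-06, edgeR), from 22.8, 23.5 and 23.0 CPM to 39.6, 42.5 and 42.2 CPM. Dync2li1, a part of the retrograde ciliary motor, fell by 0.73 (adjusted p = 0.000118, edgeR), and Ift27, a part of the anterograde complex, fell by 0.68 (adjusted p = 3.21e-05, edgeR).

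Beyond Ptch1, Gli1 and Hhip, 15 other genes reported as Hedgehog targets in various tissues were tested, of which 1 rose and 7 fell, with a median log2 fold change of -0.56. Of this list 53.3% were called, beside 34.2% of all genes, of which 18.9% were higher and 15.3% lower. Foxs1, a forkhead factor, rose by 0.78 on the log2 scale (adjusted p = 0.00171, edgeR). Foxf1, a forkhead factor of gut and lung mesenchyme, was higher at 0.51 without reaching the fold limit (adjusted p = 0.000846, edgeR). The 7 that fell were Sfrp1, a secreted Wnt inhibitor (-1.23), the cell cycle genes Ccnd1 (-1.22) and Cdk6 (-0.59), the ligands Bmp4 (-1.04) and Wnt5a (-0.96), and the transcription factors Hes1 (-1.02) and Osr2 (-0.72). Most of these genes also answer to other pathways. Ccnd1 and Cdk6 act in the cell cycle, and all 12 proliferation genes were lower in every hypoxic sample, with a median log2 fold change of -2.22. Of these, 11 were called lower (91.7%, beside 15.3% of all genes). Ccnd1 was at 24.8, 44.9 and 36.8 CPM in normoxia and at 10.3, 21.3 and 13.8 CPM in hypoxia, highest in replicate 2 and lowest in replicate 1 of each group. The summed macrophage markers had the same order of replicates, with 864, 1507 and 1177 CPM in normoxia and 453, 803 and 552 CPM in hypoxia. The part of proliferation and of macrophages in the target list was not tested.

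**Figure D4:**
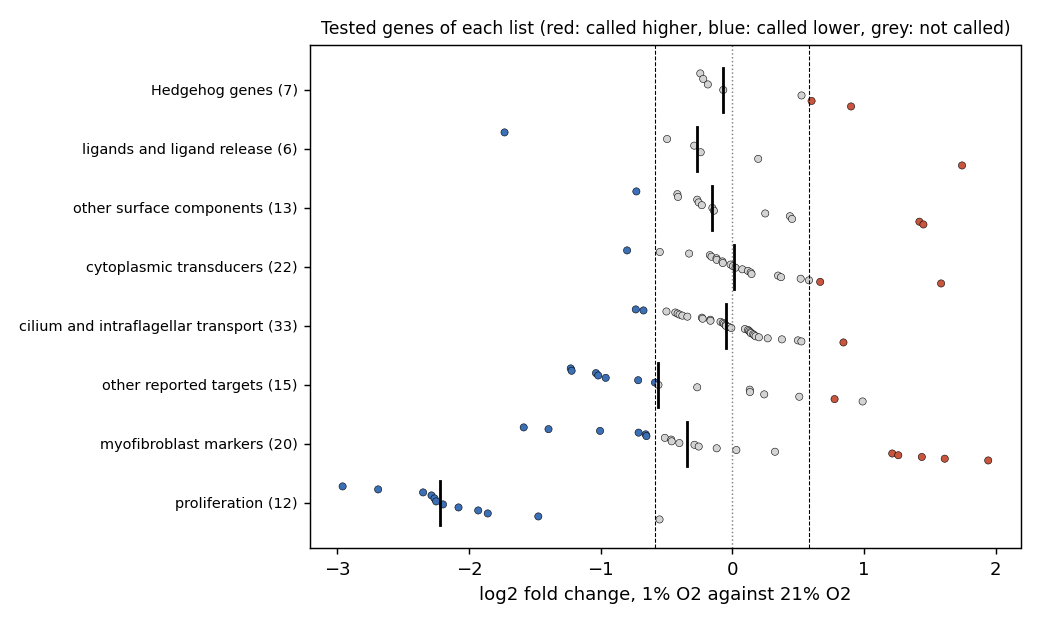
Log2 fold change in hypoxia against normoxia (horizontal axis) of the tested genes in each list (rows, with the number tested), where each point is a gene, red called higher, blue called lower and grey not called, the black bar is the median of the list and the dashed lines mark a 1.5-fold change. The Hedgehog, cytoplasmic and cilium lists are centred near 0, while the other reported targets and the proliferation genes lie mostly to the left.

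Of 20 genes that mark myofibroblasts, the fibroblast state to which the pathway has been linked, 5 rose and 6 fell (55% called, beside 34.2% of all genes), with a median log2 fold change of -0.35. Acta2, the smooth muscle actin that defines myofibroblasts, was at 256, 171 and 275 CPM in normoxia and at 151, 131 and 165 CPM in hypoxia, a fall of 0.65 on the log2 scale (adjusted p = 0.00603, edgeR). Tagln, an actin-binding protein, was lower at -0.46 with overlapping groups and did not reach the fold limit (adjusted p = 0.0186, edgeR). The largest falls were in Mylk (-1.58), the kinase of myosin light chain, and Hopx (-1.40), a homeodomain factor, and the largest rises in the matrix genes Col12a1 (1.94) and Cthrc1 (1.61). The other genes that fell were Thy1, Myl9 and Actg2, and the others that rose were Tnc, Igfbp3 and Lrrc15.

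The fibroblast genes Col3a1, Pdgfra, Pdgfrb and Vim were each at 418 CPM or more in every sample, while Lrat, a gene of vitamin A storage in quiescent stellate cells, was listed at 0 in 5 of 6 samples. Of 14 tested fibroblast and stellate markers 3 rose and 2 fell (35.7% called, beside 34.2% of all genes). Pdpn (0.99), Rgs5 (0.84) and Pdgfra (0.82) rose on the log2 scale, and Lum, a matrix proteoglycan, fell by 2.17 and Thy1 by 1.00. Markers of other cells moved with the groups. Of 11 tested macrophage markers, 6 fell (54.5%, beside 15.3% of all genes called lower), among them Aif1, Tyrobp, Fcer1g and Lyz2. Their summed level, given above, was highest in replicate 2 of each group, and hypoxic replicate 2 also held the highest Ptch1, Boc and endothelial sum (30.9 CPM, with 15.7 to 21.8 CPM in normoxia and 21.8 to 26.0 CPM in the other hypoxic samples). Among 7 tested endothelial markers 2 rose and 2 fell (57.1% called, beside 34.2% of all genes), but the number called dropped from 4 to 2 without normoxic replicate 3, without hypoxic replicate 1, and in DESeq2 with the replicate block. Tek went from 4.55 to 5.54 CPM in normoxia to 9.39 to 14.5 CPM in hypoxia and Vwf from 3.83 to 4.08 CPM to 6.01 to 8.14 CPM, both highest in hypoxic replicate 2. Cldn5 and Kdr fell, and Pecam1 and Cdh5 were at or below 2.99 CPM in all samples and were not called. Of 4 tested glial markers 2 fell (Ngfr and S100b, beside 15.3% of all genes called lower), with a sum of 9.43 to 15.4 CPM in normoxia and 6.38 to 8.26 CPM in hypoxia. Of 12 epithelial markers 3 could be tested and 1 rose (33.3%, beside 18.9% of all genes called higher). The number called was 2 with a filter of 1 CPM in 3 samples, limma-voom, a length correction or a GC correction with the replicate block. It was also 2 without normoxic replicate 3, without hypoxic replicate 2, without replicate 2 of both groups, and with no fold limit. The sum of the list went from 3.23 to 5.40 CPM in normoxia to 25.1 to 29.0 CPM in hypoxia. Most of this sum in hypoxia was Krt19 (20.6 to 23.9 CPM), followed by Muc1 (3.35 to 4.24 CPM). Ocln and Esrp1 were at 0 in all samples and Epcam and Cdh1 at or below 0.0406 CPM. With replicate 2 of both groups left out, Boc was still called and Ptch1 had a log2 fold change of 0.44. In bulk RNA fewer cells of a type and less RNA per cell cannot be told apart, and the part of other cells in the Hedgehog results was not tested.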

How the data were processed

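RNA from 6 PSC samples, 3 per oxygen level, was profiled as poly(A) libraries on a NovaSeq. The authors trimmed adapters with Cutadapt, mapped reads to GRCm38 with STAR 2.6.1b and assigned them to genes with RSEM 1.3.1, and they deposited expected counts (estimated counts per gene) that were not normalized between samples. Multi-mapping reads are shared out by RSEM, and the strand setting of the counting is not given in the sources used here. No deposited value had a fraction (0 values), and 5 transgene features, all at 0 counts, were left out. Names and positions of genes are those of GENCODE M21, which holds 55240 of the 55421 identifiers.

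Counts were filtered with filterByExpr, TMM-scaled and tested with the edgeR 4.0.16 quasi-likelihood test (R 4.3.3, limma 3.58.1) with group as the factor and Benjamini-Hochberg adjustment over 16207 genes. Genes were called at a fold beyond 1.5 and an adjusted p under 0.05, the study's thresholds. The study's methods name DESeq2, which was run as an alternative (version 1.42.0). Shares were compared with an exact two-sided permutation test (scipy 1.17.1). Fits were tested on simulated data. Replicates of a group differed by more than sampling noise, with a chi-square per degree of freedom of 6.08 to 23.6. The 9 Hedgehog genes and 13 gene lists beside them were chosen with earlier results of these data known. The genes named from a list were up to 4 called genes with the largest absolute log2 fold change at a mean of at least 1 CPM, together with all ligand genes, Acta2, Tagln and Sufu. Some genes of the rule are not reported here. Evc, Kif7, Foxf1, Foxs1, Wnt5a, Osr2, Cdk6, Myl9, Actg2, Tnc, Igfbp3, Lrrc15 and the marker genes outside this rule in the fibroblast, epithelial, endothelial and glial checks were named after their values were seen. Intervals and the floor of 3 counts cover counting error only. Sequences are from RefSeq on GRCm38.p6.

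Alternatives were other scalings, other filters, DESeq2, limma-voom, other fold limits, replicate number as a block and leaving out each library.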

Additional observations from a re-analysis of the deposited data

How the results depend on the processing

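The call of Boc held under all 19 alternatives run on the fit, and over 133 recomputed fold changes of the Hedgehog genes 125 kept direction and call and 0 reversed. Ptch1 lost its call, at an adjusted p below 0.05 each time, under 7 of the 19, so that the number of Hedgehog genes called was 1 with upper-quartile scaling (Ptch1 log2 fold change 0.58), with library totals only (0.58), with no low count filter (0.58), with a length correction (0.51) and without replicate 2 of both groups (0.44), and ran from 1 to 2 when each library was left out in turn (Ptch1 0.43 to 0.70). Without normoxic replicate 1 the 2 called genes were Gli2 and Boc. With no fold limit 5 Hedgehog genes, 52 genes of the 5 other pathway lists and 10168 of all genes were called, and with a limit of 2-fold 0, 9 and 3156, beside 2, 19 and 5547. Of 273 recomputed counts of called genes per list, 24 moved by more than 1.5 times, 10 of them under these threshold alternatives. No scaling or filter moved the median of all genes by more than 0.0544 (log2). The GC and length corrections and the fit without replicate 2 of both groups were chosen after seeing the data, and why Ptch1 depends on scaling was not tested beyond its closeness to the fold limit.

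Replicate numbers are shared by the groups, but no source says that they mark a pair. After the group means were subtracted, normoxic and hypoxic samples of the same number correlated over genes at 0.142, 0.139 and 0.0378. Samples of different numbers correlated at -0.135 to 0.00252, so each sample correlated best with its own number. These values do not settle whether the numbers mark pairs, and the main fit used the group only. With the replicate block edgeR called 5572 genes and the same 2 Hedgehog genes, Ptch1 and Boc. Depth limits Gli1, Hhip, Shh, Ihh and Dhh, which had 0 to 8 counts in a library.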
